A study of Danio rerio with 5 samples.

Results

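The 10 genes described here belong to the Notch pathway and were chosen by name among 31540 genes in the deposited tables: the receptors notch1a, notch1b, notch2 and notch3, the ligands jag1a and jag1b, the receptor-modifying enzyme gene lfng, and the transcription factor genes her6, her9 and heyl. Each was found as a single gene row and passed the low-count filter, which kept 19034 genes. Notch signalling passes between touching cells. A ligand of the Jagged or Delta family on one cell binds a Notch receptor on its neighbour, the receptor is cut, and its inner part moves to the nucleus, where it joins the DNA-binding protein Rbpj and switches on genes of the Hairy/Enhancer-of-split (her) and Hey families. In the regrowing zebrafish fin the pathway is known to be active in the blastema, the mass of dividing cells beneath the wound epidermis, and to be needed for outgrowth.

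The series holds RNA sequencing libraries of zebrafish caudal fin, 3 labelled 24h and 2 labelled Control. Its design text speaks of regenerating fins between 1 and 3 days after amputation. Both groups are labelled as regenerated caudal fin tissue, and the labels state no strain, age, genotype, number of fish or pooling, nor what the Control samples are, so each value compares the libraries carrying these labels. The labels do not say that the libraries came from separate fish, and p-values therefore measure the spread between these libraries, which may be technical.

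The libraries held 14958600 to 22341452 reads in genes. The whole tissue was sequenced, so fewer cells of a type and less RNA per cell cannot be told apart. Markers of other cell types differed between the groups. The summed level of 22 endothelial genes was 44.5 to 48.4 CPM at 24h and 296 to 298 CPM in Control, where CPM are gene reads scaled to a common library size, after correction by the trimmed mean of M-values (TMM). That of 14 osteoblast genes was 5206 to 6155 CPM at 24h, against 37178 to 37241 CPM in Control. Most of the Control sum came from col1a1a, col10a1a and sparc, with means of 19849, 10695 and 5442 CPM. Their 24h means were 3517, 28.1 and 1839 CPM. Of the col1a1a reads 58.5% were unique. For 12 basal epidermis genes the sums overlapped, at 25570 to 33214 CPM at 24h and 32476 to 39234 CPM in Control. Most of these sums was krt5, at 25700, 20346 and 24108 CPM at 24h and 27811 and 33108 CPM in Control. Of the 12 genes 3 were called higher and 3 lower, so the sums do not describe the list as a whole.

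Within the pathway, jag1a, notch3, lfng and her9 were higher at 24h, by 2.13-fold to 2.84-fold, and notch1b was lower by 2.53-fold. The other 5 genes, notch1a, notch2, jag1b, her6 and heyl, did not pass the test. A gene was called where the quasi-likelihood test of edgeR, run on all 19034 genes, gave a p under 0.05 after Benjamini-Hochberg adjustment. At that threshold 24.3% of all tested genes were called, 9.43% as higher and 14.8% as lower, beside the 4 higher and 1 lower among the 10. Their median log2 fold change was 0.38, against -0.0043 over all tested genes. The 10 genes were chosen with earlier results of these data known, so setting them beside all genes only describes them. In CPM, 7 of the 10 genes had no overlap between groups, 5 of them higher and 2 lower at 24h, beside 56.8% of all tested genes, 27.7% higher and 29.1% lower.

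**Figure D1:**
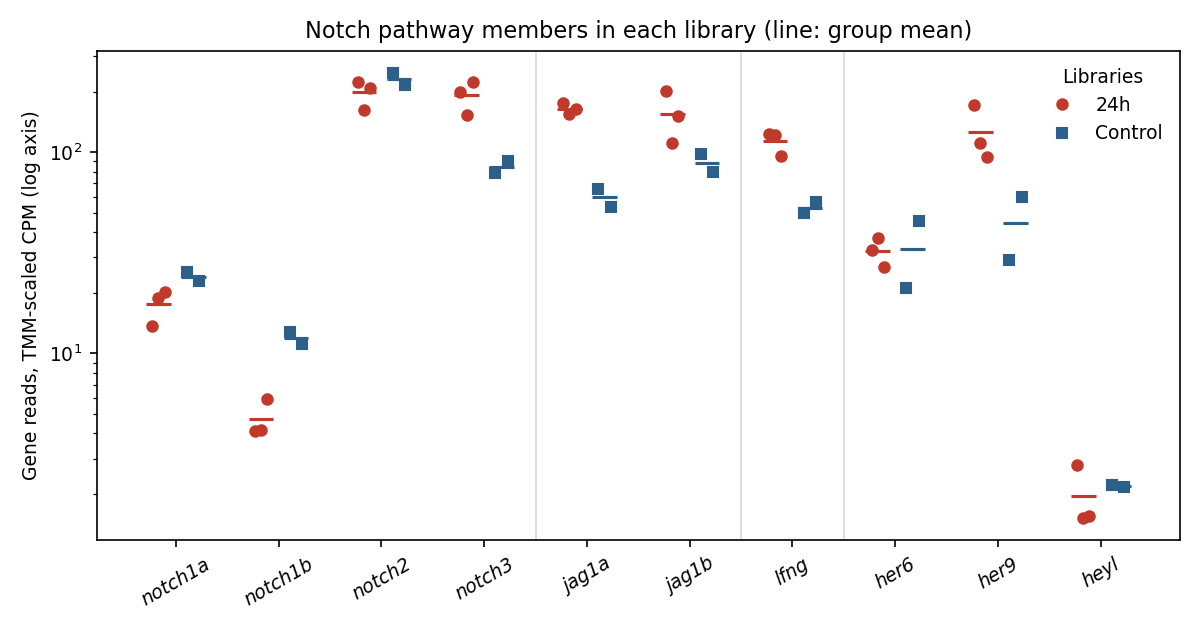
Gene reads as TMM-scaled CPM on a log axis for the 10 genes, with a red circle for each 24h library, a blue square for each Control library and a line at each group mean. The 24h points of jag1a, jag1b, notch3, lfng and her9 lie above both Control points, and those of notch1a and notch1b lie below them.

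Among the receptors, notch3, which in vertebrates is best known from the mural cells that wrap blood vessels, had 199, 153 and 222 CPM at 24h and 79.1 and 90.3 CPM in Control. The groups did not overlap, and its lowest 24h value was well above its highest Control value. Its log2 fold change was 1.18 ± 0.18 (SE, edgeR adjusted p = 0.0040). It lies on chromosome 3 from 53275051 to 53304745 on the minus strand (GRCz10, as are all positions below). Of 14 tested mural cell marker models 7 were called lower and 1 higher. The part of this in the notch3 value was not tested.

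The receptor gene notch1b, which zebrafish embryos express in the endothelium among other tissues, went the other way. It had 4.11, 4.15 and 5.91 CPM at 24h and 12.7 and 11.1 CPM in Control. Every 24h value was below both Control values. From 273 reads at 24h and 409 in Control its log2 fold change was -1.34 ± 0.23 (SE, edgeR adjusted p = 0.0061). Without Control replicate 1 its adjusted p was 0.062, at a log2 fold change of -1.24. The gene lies on chromosome 5 from 64998482 to 65103741 on the minus strand. The endothelial marker list stood lower beside it, with 16 of its 19 tested genes called lower and none called higher in edgeR, and a median log2 fold change of -2.93. Of its 22 genes none was at 0 over the 24h libraries. Other marker lists were lower too, with medians of -3.71 for melanophores, -2.98 for neurons and glia, -2.45 for osteoblasts and -1.12 for mural cells. The basal epidermis list had a median of 0.081. The part of these marker differences in the notch1b value was not tested.

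Its copy notch1a, on chromosome 21 from 4601675 to 4684498 (minus strand), had 13.6, 18.8 and 20.3 CPM at 24h and 25.2 and 22.9 CPM in Control. The groups did not overlap, but the log2 fold change of -0.46 ± 0.19 (SE) did not pass (edgeR adjusted p = 0.13). The remaining receptor gene notch2, on chromosome 8 from 19516900 to 19587707 (plus strand), had 224, 163 and 208 CPM at 24h and 247 and 215 CPM in Control. These values overlapped, and the log2 fold change was -0.22 ± 0.17 (SE, edgeR adjusted p = 0.36; approximate 95% interval -0.55 to 0.10).

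Levels of different genes are compared here only per length, as exon reads per kilobase of exon on the same library scale (exon RPKM). All receptor genes together had 35.8 to 49.1 exon RPKM at 24h and 34.5 to 37.1 in Control, so these sums overlapped. The composition was different. Of the receptor signal per length, notch3 made up 51.8%, 50.4% and 54.4% at 24h, against 25.8% and 31.0% in Control. The share of notch2 was 44.6%, 43.2% and 40.3% at 24h and 64.3% and 59.3% in Control. The notch1a share was 2.91% to 5.48% at 24h and 6.84% to 7.05% in Control, and that of notch1b 0.709% to 1.05% at 24h and 2.89% in each Control library. Thus notch3 was the receptor gene with the highest level per length in every 24h library, and notch2 in each Control library. The 24h levels were close, at 24.7, 18.0 and 26.7 exon RPKM for notch3 and 21.3, 15.4 and 19.8 for notch2. This order therefore depends on the annotated exon lengths, 7921 bases for notch3 and 10095 for notch2.

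**Figure D2:**
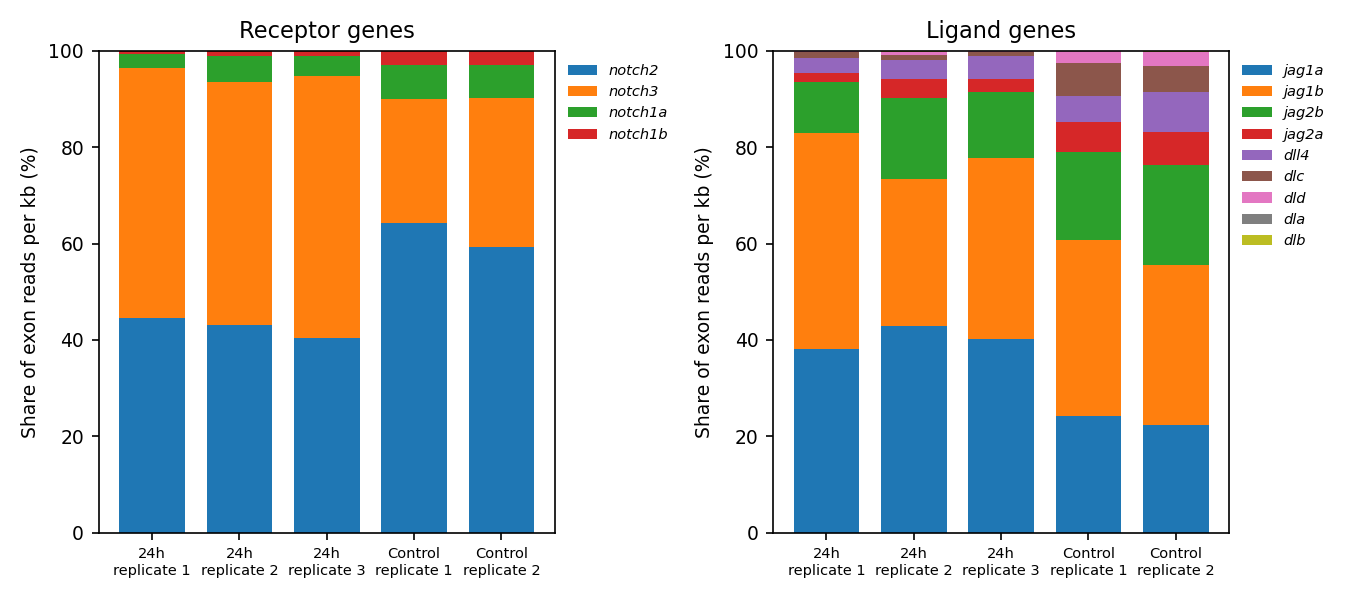
Shares of exon reads per kilobase, in percent, taken by each receptor gene (left) and each Jagged or Delta ligand gene (right), with one bar per library and the 24h libraries at the left of each panel. The share of notch3 is above 50% in the 24h bars and that of jag1a reaches 42.9%, while notch2 fills 59.3% or more of the Control receptor bars.

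The Jagged ligand gene jag1a differed with the smallest p among the 10 genes. Its product activates receptors on neighbouring cells, and the mammalian gene JAG1 is needed for vessel, bile duct and heart development. It had 175, 155 and 163 CPM at 24h and 65.9 and 53.5 CPM in Control. The groups were far apart relative to the spread within each. Its log2 fold change was 1.46 ± 0.14 (SE, edgeR adjusted p = 0.00049), and it lies on chromosome 1 from 50461185 to 50513861 on the minus strand.

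The copy jag1b, on chromosome 13 from 35213350 to 35264263 (plus strand), had 201, 111 and 151 CPM at 24h and 98.1 and 79.3 CPM in Control. All 24h values were above both Control values, with 24h replicate 2 close to Control replicate 1. The log2 fold change of 0.80 ± 0.25 (SE) missed the threshold (edgeR adjusted p = 0.060). It passed without 24h replicate 2, at 0.99 (edgeR adjusted p = 0.022), in DESeq2 at 0.80 (adjusted p = 0.019), and in edgeR with library sizes without the 20 most abundant genes and no TMM at 0.74 (adjusted p = 0.044). It did not pass in the other 13 alternatives, where its adjusted p ran up to 0.26.

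Of the exon reads per length in 9 Jagged and Delta ligand genes, jag1a held 38.1% to 42.9% at 24h and 22.4% to 24.2% in Control. The share of jag1b overlapped between the groups, at 30.6% to 44.8% at 24h and 33.1% to 36.6% in Control. Together the ligand genes had 51.2 to 64.6 exon RPKM at 24h and 34.4 to 38.5 in Control, without overlap.

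The gene lfng encodes a Fringe enzyme, which adds a sugar to Notch receptors and so alters which ligands they answer to. It had 122, 122 and 95.3 CPM at 24h and 49.7 and 56.4 CPM in Control. The groups did not overlap, and the log2 fold change was 1.09 ± 0.16 (SE, edgeR adjusted p = 0.0029). It lies on chromosome 3 from 41775641 to 41785011 on the plus strand. Among the 3 fringe genes lfng held 78.1% to 83.1% of the exon reads per length at 24h, against 57.6% to 62.8% in Control. Its relative mfng, the manic fringe gene, held 7.35% to 8.22% at 24h and 19.3% to 25.7% in Control. The radical fringe gene rfng did not pass (log2 fold change 0.20 ± 0.20, SE, edgeR adjusted p = 0.50).

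The 3 transcription factor genes differed among themselves. The repressor gene her9 had 171, 112 and 94.8 CPM at 24h and 29.1 and 59.7 CPM in Control. Both groups were spread, with 24h replicate 1 high and Control replicate 1 low, but they did not overlap. In zebrafish embryos her9 answers to signals other than Notch, and whether Notch acted on it in these libraries was not tested. Its log2 fold change of 1.51 ± 0.38 (SE) had an edgeR adjusted p of 0.032, on chromosome 23 from 23472969 to 23474754 (minus strand). This call did not hold without 24h replicate 1 (1.22, adjusted p = 0.073), without 24h replicate 2 (1.59, adjusted p = 0.057), without Control replicate 1 (1.08, adjusted p = 0.14) or with no low-count filter (1.52, adjusted p = 0.087). The value stayed positive in all alternatives, from 1.08 to 2.13.

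The related repressor gene her6, a counterpart of mammalian HES1 and a common readout of Notch signalling, had 32.8, 37.5 and 26.9 CPM at 24h and 21.1 and 45.2 CPM in Control. All 24h values lay between the Control values. The log2 fold change was -0.03 ± 0.31 (SE, edgeR adjusted p = 0.96; approximate 95% interval -0.64 to 0.59). It lies on chromosome 6 from 36573189 to 36574950 (minus strand). The direction of her6 depended on the Control library used: leaving out Control replicate 2 gave 0.63, leaving out Control replicate 1 gave -0.48, and neither passed.

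The basic helix-loop-helix gene heyl was low, with 117 reads at 24h and 75 in Control. It had 2.79, 1.52 and 1.56 CPM at 24h and 2.22 and 2.18 CPM in Control, and the Control values lay inside the 24h range. Its log2 fold change was -0.16 ± 0.37 (SE, edgeR adjusted p = 0.78; approximate 95% interval -0.88 to 0.55), on chromosome 19 from 32966754 to 32973471 (plus strand). Differences within that interval are not excluded by these libraries.

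**Figure D3:**
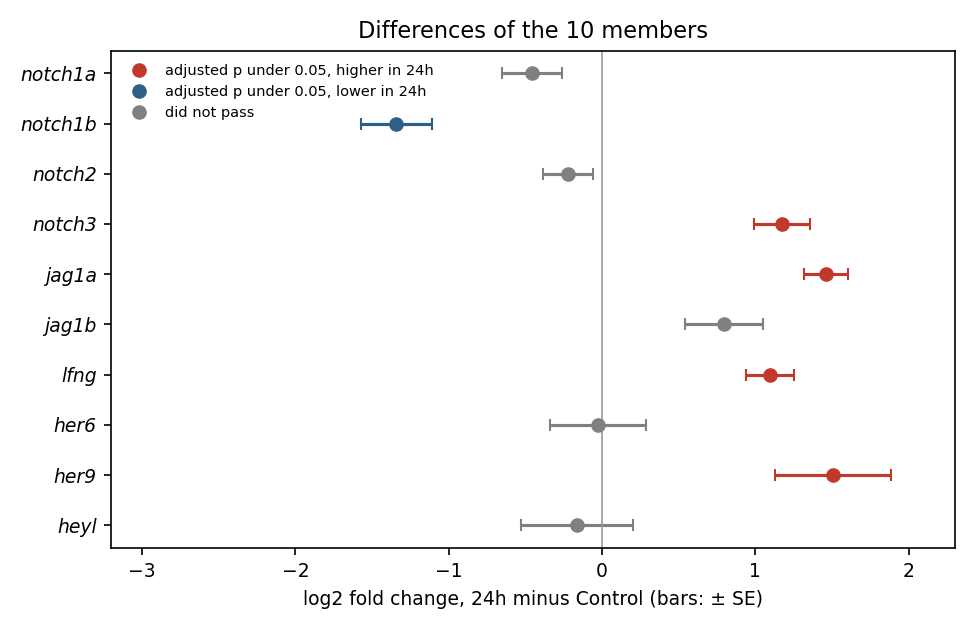
The log2 fold change, 24h minus Control, of the 10 genes with bars of ± SE from edgeR's fit, coloured by whether the adjusted p was under 0.05. Values run from -1.34 for notch1b to 1.51 for her9, and notch2, her6 and heyl lie nearest to 0.

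In order of level per length, her9 came first at 24h at 79.6 ± 25.2 exon RPKM (SD, n = 3), and lfng was next at 35.4 ± 5.03. The values of notch3 (23.2 ± 4.56), jag1a (23.1 ± 1.37), jag1b (22.0 ± 6.65), her6 (20.7 ± 3.41) and notch2 (18.8 ± 3.04) followed, and these neighbours overlapped in their libraries. Far below stood notch1a (1.80 ± 0.36) and heyl (1.01 ± 0.51), which overlapped, and notch1b (0.403 ± 0.097), which was below both. In the Control libraries the order began with her9 (28.3 ± 13.9 exon RPKM, SD, n = 2), notch2 (22.2 ± 2.40), her6 (21.2 ± 10.9) and lfng (16.7 ± 1.34). The her6 values there overlapped those of her9, notch2, lfng and jag1b, and her9 also overlapped notch2 but not lfng. Next were jag1b (12.7 ± 1.90), notch3 (10.1 ± 0.81) and jag1a (8.51 ± 1.13), and again notch1a (2.49 ± 0.18), heyl (1.28 ± 0.081) and notch1b (1.04 ± 0.054) were lowest.

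Ratios of related genes within each library do not depend on library scaling. Per length, notch2 was at 0.862, 0.857 and 0.741 times notch3 at 24h and at 2.50 and 1.91 times notch3 in Control, a difference of -1.42 in mean log2 ratio. The ratio of her6 over her9 was 0.192, 0.340 and 0.286 at 24h and 0.728 and 0.757 in Control, a difference of -1.48. Both Control libraries gave nearly the same ratio, although her6 and her9 were each higher in Control replicate 2. For notch1a over notch1b the ratios were 4.11, 5.51 and 4.00 at 24h and 2.44 and 2.37 in Control, a difference of 0.90. For jag1a over jag1b they were 0.851, 1.40 and 1.07 at 24h and 0.661 and 0.677 in Control, a difference of 0.70. None of the 4 ratios overlapped between the groups. Each had a two-sided exact permutation p of 0.2, adjusted p = 0.2 over the 4. This is the smallest p that 3 against 2 libraries allow, so the test cannot decide whether the ratios differ. The ratios use the same reads as the values of the single genes above. The share of other gene pairs without overlap was not computed.

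**Figure D4:**
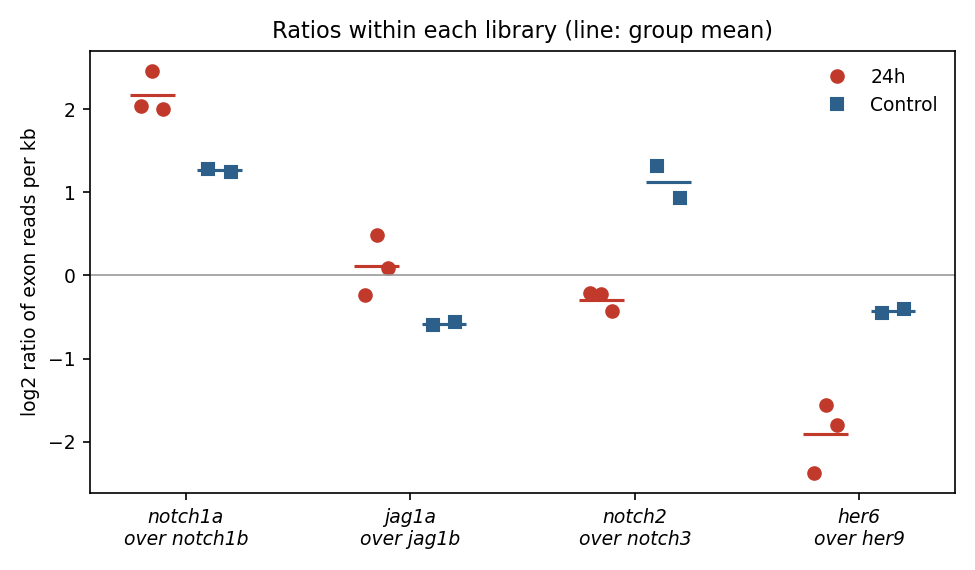
The log2 ratio of exon reads per kilobase of 4 pairs of related genes in each library, with red circles for 24h, blue squares for Control and a line at each group mean. The groups are separate in each pair, and notch2 over notch3 is below 0 in every 24h library and above 0 in each Control library.

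No other gene model overlapped any of the 10 genes, and 99.4% to 100% of their reads were unique, so their counts are little touched by shared reads. The tables also count the reads that span exon junctions and those in introns, which are subsets of the gene reads. Exon-junction reads of jag1a averaged 45.7 CPM at 24h and 18.2 CPM in Control, a log2 ratio of 1.33, and its intron reads 10.2 CPM at 24h and 2.92 CPM in Control, a log2 ratio of 1.80. For her9 the intron reads averaged 2.42 CPM at 24h and 0.534 CPM in Control, from 147 reads at 24h and 18 in Control. The lfng intron reads averaged 3.55 CPM at 24h and 1.37 CPM in Control. In jag1a, her9 and lfng neither kind of read overlapped between the groups. For notch3 the exon-junction reads did not overlap, at 80.1 CPM at 24h and 37.4 CPM in Control on average, while its intron reads did, at 7.86 CPM at 24h and 4.48 CPM in Control. The intron reads of jag1b did not overlap, at averages of 5.58 CPM at 24h and 2.75 CPM in Control, while its exon-junction reads did. Exon-junction reads of notch1a, notch1b and notch2 were lower at 24h without overlap, at log2 ratios of -0.53, -1.62 and -0.48. The notch1b intron reads were also lower without overlap, at a log2 ratio of -1.16, while those of notch1a and notch2 overlapped. In her6 and heyl both kinds overlapped. These read kinds were described, not tested, and the share of all genes without overlap in them was not computed. In gene reads 56.8% of all tested genes had no overlap between the groups, so a lack of overlap is common here.

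A wider list of the pathway, 81 further gene models, moved both ways. Of the 62 that passed the filter 6 were higher and 12 lower, which is 29.0% against the 24.3% of all tested genes. Their median log2 fold change was -0.14. This list too was chosen with earlier results of these data known. Among ligand genes 3 of 7 tested (42.9%) were lower, against 14.8% of all tested genes, and none was higher in edgeR. Another 3 were removed by the filter. The Delta ligand gene dlc, known from arteries and somites of zebrafish embryos, had 1.56 to 2.89 CPM at 24h and 7.05 to 10.5 CPM in Control (log2 fold change -1.97 ± 0.31, SE, edgeR adjusted p = 0.0044). The neural Delta gene dld was at -2.10 ± 0.38 (SE, edgeR adjusted p = 0.0079). The endothelial Delta gene dll4, at -0.22 ± 0.24 (SE), and the Jagged genes jag2a, at -0.54 ± 0.24 (SE), and jag2b, at 0.10 ± 0.14 (SE), did not pass. The third lower ligand-type gene, dlk2, named after its values were seen, had 11 reads at 24h and 35 in Control. Of these reads 47.8% lay in introns. Another tested ligand-type gene, dner, did not pass, and 99.3% of its reads lay in introns.

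Of 27 tested genes of ligand uptake, receptor modification and cleavage, 3 were higher and 2 lower. That is 18.5%, below the 24.3% of all tested genes. Among the higher ones were aph1b (0.40 ± 0.11, log2 fold change ± SE), of the gamma-secretase that releases the inner part of the receptor, and the furin protease gene furinb (0.47 ± 0.14). The gamma-secretase genes psenen (0.23 ± 0.12) and ncstn (-0.08 ± 0.21) did not pass. The lower ones were mfng (-0.83 ± 0.19) and, named after its values were seen, neurl1b (-0.90 ± 0.22).

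Of 18 nuclear genes, 2 were higher, the kinase gene cdk8 (0.48 ± 0.12, log2 fold change ± SE), whose mammalian product marks the active receptor fragment for breakdown, and the deacetylase gene hdac1 (0.42 ± 0.13). Another 4 were lower, so 33.3% were called, against 24.3% of all tested genes. The LIM-domain gene fhl1b was at -2.31 ± 0.20; in mammals one form of FHL1 binds RBPJ. The Rbpj gene rbpjb was at -0.75 ± 0.18, while its copy rbpja did not pass, at 0.24 ± 0.14. The other lower ones, named after their values were seen, were spen (-0.76 ± 0.21) and rbpjl (-3.17 ± 0.78), of whose 8 reads at 24h and 41 in Control 98.0% lay in introns. The rbpjl model overlaps matn4 on the other strand, and whether counting used strand is not given in the sources at hand.

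Among 25 further her, hes, hey and nrarp models, 15 were removed by the filter. Of the 10 tested, hey1 was higher and hey2, her12 and her4.2 lower, so 40% were called, against 24.3% of all tested genes. The gene hey1, a Notch target in many tissues, had 120, 72.5 and 43.2 CPM at 24h and 9.40 and 11.1 CPM in Control, the largest rise on the list at 2.94 ± 0.45 (log2 fold change ± SE, edgeR adjusted p = 0.0058). Its 24h libraries were ordered as those of her9, with replicate 1 highest and replicate 3 lowest. By contrast hey2, an arterial gene of zebrafish embryos, had 0.391, 0.212 and 0.195 CPM at 24h and 1.85 and 1.65 CPM in Control (-2.68 ± 0.44, edgeR adjusted p = 0.0051). The gene her12 had 1 read over the 24h libraries and 23 in Control, a pooled, library-scaled ratio of Control over 24h of 40.1 (Clopper-Pearson bounds at 95%, for counting error alone, of 6.51 and 1652).

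The 5 models of the her4 family, Notch targets in neural and endothelial cells, had 0 reads at 24h and 20 and 21 in Control, 27 of them in the tested model named her4.2, which overlaps her4.3. Taking 3 reads as the floor over the whole 24h group and the 41 Control reads as counted, they were 23.8-fold lower or more at 24h. This bound leaves out the counting error of the Control reads. The 5 models are near copies of each other, and 22 of the 41 reads were unique. The direct feedback gene nrarpa, which encodes an ankyrin-repeat protein, did not pass. It had 212, 148 and 154 CPM at 24h and 70.5 and 151 CPM in Control, with overlap between the groups, and like her6 and her9 it was higher in Control replicate 2 than in Control replicate 1.

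**Figure D5:**
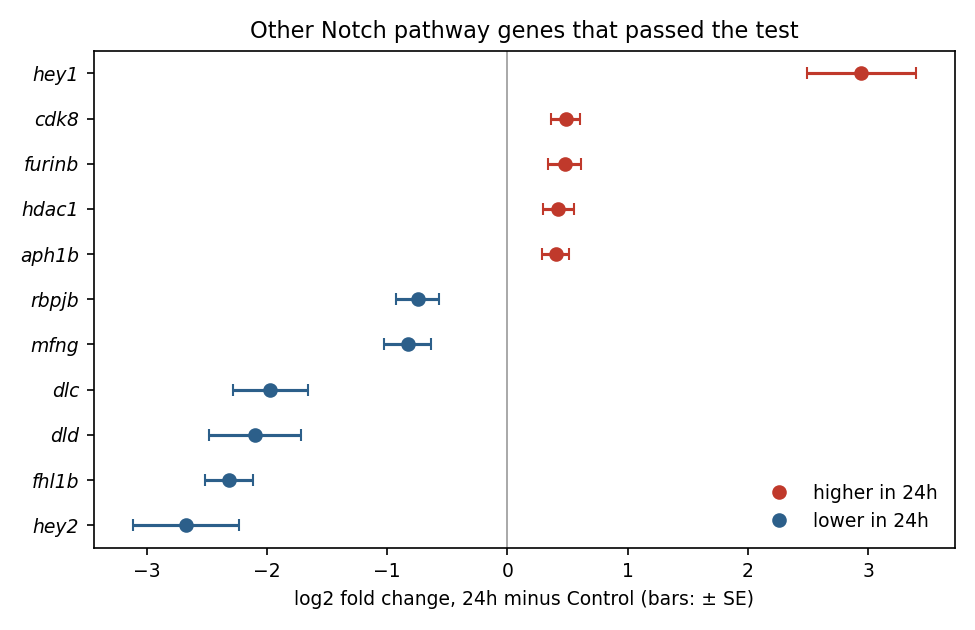
The log2 fold change, 24h minus Control, with bars of ± SE, of other Notch pathway genes with the smallest p in each direction. Values run from -2.68 for hey2 to 2.94 for hey1, and her12 and her4.2 are left out because they had 1 and 0 reads at 24h.

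Several of these calls rested on both Control libraries. Without Control replicate 1 the list had no higher and 3 lower genes in edgeR, where 4 higher ones had an unadjusted p under 0.05, and without Control replicate 2 it had 2 higher and 4 lower. In that setting without Control replicate 1 hey1 was at 2.82 (adjusted p = 0.083), dlc at -1.66 (0.051), hey2 at -2.59 (0.060) and dld at -2.15 (0.055). Without Control replicate 2 hey1 was at 3.08 (adjusted p = 0.073) and dld at -2.05 (0.052). Both leave 1 Control library, which edgeR then assumes to vary like the 24h ones. Over all genes the number of calls fell in these fits too. Whether this list lost a larger part of its calls than all genes did was not tested. Of the 16 alternatives, the call of hdac1 was lost in 9, those of aph1b and rbpjb in 7 each and that of furinb in 6. The call of cdk8 was lost in 5 and that of mfng in 3.

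Marker lists of other cell types moved beside these values too. Of 14 tested mural cell models 7 were lower and 1 higher, and the summed level of all 15 models on the list was 103 to 145 CPM at 24h and 204 to 215 CPM in Control, with kcnj8 at 0 at 24h. In that list mylka was at -4.13 ± 0.23 and tagln at -1.90 ± 0.21 (log2 fold change ± SE), both past edgeR's test. A further model of mylka, at -3.38 ± 0.48, was also called lower, so the 7 lower models count this gene repeatedly. Named after their values were seen, ndufa4l2a was the mural gene called higher (1.94 ± 0.28), and rgs5b (0.70 ± 0.31) and rgs5a (0.08 ± 0.19) did not pass. Of 15 mural symbols sought 14 were found, and pdgfrb was not among them. Of the endothelial list tie1 was at -3.39 ± 0.18 and clec14a at -3.81 ± 0.22. The neural and glial list had 4 of 5 tested genes lower, by smallest p sox10 (-4.53 ± 0.36) and foxd3 (-4.31 ± 0.44), with sums of 3.43 to 3.96 CPM at 24h and 23.9 to 26.0 CPM in Control. Only 10.7% of the foxd3 reads were unique, and its model overlaps another on the same strand. The tested gene of this list that did not pass, named after its values were seen, was elavl4 (-1.15 ± 0.39). The filter removed 5 further genes of this list. Of its 12 symbols sought 10 were found, and sncgb and gap43 were not among them. All 9 melanophore genes tested were lower, by smallest p pmela (-7.23 ± 0.20) and tyrp1b (-6.59 ± 0.33), with sums of 4.84 to 7.96 CPM at 24h and 217 to 236 CPM in Control. Of the osteoblast list 11 of 14 were lower, by smallest p ifitm5 (-7.11 ± 0.25) and phospho1 (-4.19 ± 0.16). In the basal epidermis list 3 were higher and 3 lower, with the lower col17a1a (-4.56 ± 0.15) and lamb4 (-4.43 ± 0.18) at the smallest p. The other lower gene, named after its values were seen, was krtt1c19e (-7.35 ± 0.30). The higher ones there, named after their values were seen, were tp63 (1.17 ± 0.24), cldni (1.11 ± 0.21) and cdh1 (0.64 ± 0.13). The part of these differences in the Notch pathway values was not tested.

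By Euclidean distance between mean-centred log2(CPM + 0.5) profiles over the 5 libraries, the tested genes most like her9 were lpar3 (distance 0.277), dlx3b (0.354) and perp (0.404). All 3 were highest in 24h replicate 1 and lower in Control replicate 1 than in Control replicate 2, as her9 was. Choosing genes by this distance makes such a shared order likely. Those most like notch1b were slc40a1 (distance 0.105), bckdhbl (0.117) and vav3a (0.144). The vav3a level was low, at means of 0.337 CPM at 24h and 1.46 CPM in Control, so the offset of 0.5 shrinks its profile. Its log2 fold change in edgeR was -2.14, against -1.34 for notch1b. These distances describe 5 libraries only.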

How the data were processed

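Gene counts of 5 zebrafish fin libraries were analysed. Per the labels' protocols, a phenol method gave the RNA and the library kit was a stranded one for mRNA. GRCz10 is the build in the submitters' processing notes. Not given in the sources used here: the aligner, the counter and whether counting used strand. The deposited read counts are whole numbers per gene (total, unique, exon, exon-junction, intron). The RPKM and TPM are the authors' own scaled values; recovered divisors of the deposited RPKM were 1.10 times the summed gene reads in every library but 24h replicate 1, where the 2 were equal. The 10 genes were matched by name; names of other genes came from the deposited tables, or for some from a table of gene names that holds 26073 of the 31540 identifiers.

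Total gene reads (14958600 to 22341452 per library) were tested with edgeR 4.0.16 in R 4.3.3: TMM, filterByExpr, robust quasi-likelihood F test, Benjamini-Hochberg adjustment over 19034 genes, no covariate. The standard error is the size of the log2 fold change over the square root of F, and the 95% interval is its normal approximation. The spread between libraries of a group, as a common biological coefficient of variation, came to 20.2%. The code was tested on simulated data. No 2 libraries had counts within sampling noise of each other: the lowest chi-square was 15.2 per degree of freedom. The counts carry no molecular identifiers, so intervals on counts and the floor of 3 reads hold for counting error alone. Alternatives were DESeq2 1.42.0, limma 3.58.1, other scalings, filters and read kinds, and leaving out each library.

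All 10 genes are named. Of the wider list, the called genes with the 8 smallest p in each direction are named, except 1 that is not reported here, and of each marker list the 2 with the smallest p; further genes are examples picked with their values in view. Sequences were not used here. The members and lists were chosen with earlier results of these data known. For likeness, the 3 nearest genes with a symbol were taken for the called gene with the largest fold change in each direction.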

Additional observations from a re-analysis of the deposited data

How the results depend on the processing

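The 10 genes were refitted under 16 alternatives each; 145 of the 160 values kept their direction and their side of the threshold, and jag1a, notch3 and lfng kept theirs in all 16. The number of genes called over the whole table ran from 1790 to 4693 when one library was left out, against 4618; leaving out Control replicate 1 gave 1790, and leaving out Control replicate 2 gave 2208. Fewer samples enter those fits. The count of lower genes among the 10 ran from 0 to 1, with 1 at an unadjusted p under 0.05 in the edgeR fit without Control replicate 1. In the wider pathway list the count of higher genes was 3 with library sizes without the 20 most abundant genes and 3 with limma on log2(TPM + 1), against 6; the cause was not tested. With one library left out it ran from 0 to 5, and the count of lower genes from 3 to 11. The her6 value, -0.03, was 0.091 with limma-voom, 0.11 with limma on log2(RPKM + 1), 0.12 with 0.1 in place of 1 and 0.018 with limma on log2(TPM + 1), and ran from -0.48 to 0.63 with one library left out. That of heyl ran from -0.52 to 0.00017. The named genes of the wider list were put through the same alternatives after seeing the data, and 45 of 213 values lost the call with none changing direction. The 4 ratios of related genes kept their direction in all 7 alternatives each. No paired analysis was possible because the labels give no replicate number that the groups share; the numbers used here follow the order of deposit and only name libraries. With 2 Control libraries, genes with few reads, such as heyl, can show only large differences.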
